A study of Homo sapiens with 8 samples.

Results

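The box C/D small nucleolar RNA genes were taken as the genes of the deposited table whose symbol begins with SNORD, which are 254 of its 25337 usable genes. A value above 0 in at least 1 of 8 libraries was present for 72 of them, and 182 were listed at 0 throughout. U3 (SNORD3A), SNORD118 and SNORD13, which are transcribed from genes of their own, were not analysed here. The libraries came from the small cell lung cancer line NCI-H82, an established culture in which all cells carried the pTripZ RB1 transgene, which doxycycline switches on to give the retinoblastoma protein pRB. Cells called pRB+ had doxycycline at 0.5 µg/mL for 96 h and cells called pRB- had none, and both were split for the final 48 h between DMSO (control) and AZD2811, which blocks the mitotic kinase Aurora B, at 32 nM. No library had doxycycline without the transgene, so differences by pRB and by doxycycline itself cannot be told apart. The sample titles give the inhibitor as AZD1152, the prodrug of AZD2811. Each of the 4 groups held 2 libraries that the series calls biological replicates without saying how they were cultured, so p-values here reflect only how far these samples spread. The labels describe a stranded total RNA protocol from 500 ng of RNA, so RNA without a poly(A) tail could enter the libraries.

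Box C/D RNAs guide 2′-O-methylation of ribosomal RNA. They carry 2 short motifs, box C near the 5′ end and box D near the 3′ end, and assemble with the methyltransferase fibrillarin (FBL), NOP56, NOP58 and the kink-turn binding protein SNU13, listed here under its older symbol NHP2L1. Most human members are processed from introns of host genes, many of which encode ribosomal proteins, and some hosts such as GAS5 and SNHG1 are noncoding. The SNORD115 and SNORD116 clusters on chromosome 15 are imprinted tandem repeats expressed from the paternal chromosome, SNORD115 mainly in neurons.

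Sequences of several members on which the results turn are given 5′ to 3′ from the GENCODE 29 transcripts, in DNA letters, with capitals for TGATGA within the first 25 nt (box C) and CTGA within the last 25 nt (box D). The first 3 are among the 4 members of 110 nt or more with the most fragments, and SNORD97 and SNORD10 were high in the same 3 libraries.
SNORD97: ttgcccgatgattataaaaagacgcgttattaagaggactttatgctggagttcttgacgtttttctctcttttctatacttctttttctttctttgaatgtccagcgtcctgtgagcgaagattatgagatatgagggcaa
SNORD10: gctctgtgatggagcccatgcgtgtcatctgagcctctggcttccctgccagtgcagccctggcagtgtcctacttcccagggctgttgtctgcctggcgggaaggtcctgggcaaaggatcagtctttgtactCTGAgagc
SNORD22: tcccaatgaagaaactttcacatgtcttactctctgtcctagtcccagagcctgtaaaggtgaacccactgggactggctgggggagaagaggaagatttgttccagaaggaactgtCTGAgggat
The next are the members that passed the test (SNORD67 and SNORD116-23), the SNORD116 copy with the highest mean level (SNORD116-22), and 1 copy of the undetected SNORD115 cluster.
SNORD67: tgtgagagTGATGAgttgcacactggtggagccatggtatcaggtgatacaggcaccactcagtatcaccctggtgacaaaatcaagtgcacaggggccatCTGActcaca
SNORD116-23: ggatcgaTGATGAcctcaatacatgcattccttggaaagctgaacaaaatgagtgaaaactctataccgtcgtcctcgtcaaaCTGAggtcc
SNORD116-22: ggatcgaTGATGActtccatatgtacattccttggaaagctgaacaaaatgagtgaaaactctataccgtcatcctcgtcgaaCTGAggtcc
SNORD115-1: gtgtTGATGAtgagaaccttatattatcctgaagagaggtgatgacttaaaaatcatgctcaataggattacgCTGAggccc
SNORD97, SNORD22 and SNORD67 lie on chromosome 11 and SNORD10 on chromosome 17. SNORD116-22 and SNORD116-23 differ at 7 of 92 positions. Values were read with RefSeq lengths, which are 148 nt for SNORD10 and 94 nt for these SNORD116 copies, while the printed sequences have 142 and 92 nt. Of 236 SNORD sequences found in GENCODE 29, TGATGA stood in the first 25 nt of 72% and CTGA in the last 25 nt of 96.2%, on the RNA's own strand. Among 142 sequences of the other large class, box H/ACA RNAs (SNORA), the shares were 0.704% and 12%. A match is a description of the letters, and its absence from SNORD97 or SNORD22 says only that these letters are not in the window.

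The deposited unit, FPKM, relates fragments to gene length and library size, and it gave very short RNAs very large values for single fragments. In 63 of the 72 members the values moved in whole steps, each worth 1 fragment, and 275 of their 277 values above 0 (99.3%) were whole within 1% or 0.02 fragments. The 63 were chosen by this same tolerance in 7 libraries, so the 99.3% is no independent check. In the library left out of that choice, pRB+ control replicate 2, 34 of 36 values above 0 were whole. The worth of 1 fragment in that library was itself fitted by length to its values. In pRB- control replicate 1, 1 fragment was worth 517 deposited FPKM at a RefSeq length of 75 nt, 163 at 82 nt, 50.3 at 94 nt and 4.16 at 149 nt. A high FPKM of a short member was therefore often 1 fragment: 97 of the 277 values stood for 1 fragment and 196 for 1 to 3. Another 8 members had fractional values, and SNORD17, of 237 nt, lay beyond the lengths for which a step could be read. The fractional members include copies of the SNORD116 and SNORD62 families, which share sequence, and SNORD86, whose values were above 0 only in name, with a mean of 6.3e-47 scaled FPKM, and which has no fragment count here.

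Detection was more frequent in longer members. None of the 70 members of 71 nt or less had a value above 0 in any library. The share with a value above 0 was 13 of 69 (18.8%) at 72 to 81 nt, 31 of 78 (39.7%) at 82 to 95 nt, 18 of 26 (69.2%) from 96 nt to under 110 nt and 10 of 11 (90.9%) at 110 nt or more. Imprinted clusters described below weigh on these shares, since 32 of the 78 members of 82 to 95 nt were SNORD115 copies, all at 0. Without the clusters SNORD112 to SNORD115 the shares were 13 of 48 (27.1%), 31 of 46 (67.4%), 18 of 25 (72%) and 10 of 11 (90.9%) in the same order. These clusters were left out because they were at 0 throughout, so no share could fall and the step is a description only. Box H/ACA RNAs, all of them at least 110 nt long, were above 0 in 94 of 105 cases (89.5%), and their median length was 134 nt against 79 nt for SNORD. MicroRNA genes of 71 nt or less were above 0 in 1 of 439 cases. The value 0 was thus shared by all of the shortest members, whatever the level of their host.

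**Figure D1:**
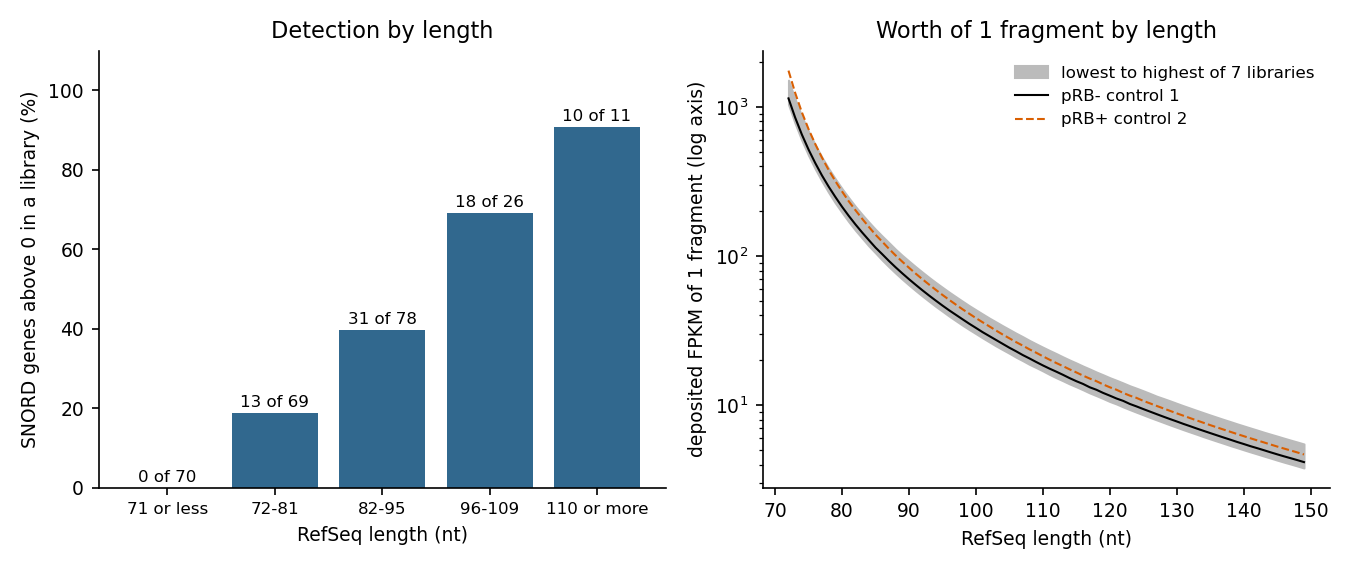
Left, the percent of SNORD genes with a value above 0 in at least 1 of 8 libraries by RefSeq length class, with counts above the bars. Right, the deposited FPKM that 1 fragment was worth by length (log axis), which in pRB- control replicate 1 fell from 1140 at 72 nt to 4.16 at 149 nt.

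Counted in fragments, the family was sparse. The 70 members with a fragment total had a median of 6 fragments over all 8 libraries together, 34 of them had 5 or fewer, and 6 had more than 50. Only 13 members were above 0 in all 8 libraries, and 13 were above 0 in a single one. A single fragment has an exact 95% Poisson interval of 0.0253 to 5.57, which covers counting error only.

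The libraries differed in their content of short noncoding RNA. RMRP and RPPH1, the RNA subunits of RNase MRP and RNase P, have no poly(A) tail. RMRP was at 5793 to 14002 scaled FPKM in 3 libraries and at 21.2 to 165 in the other 5. Scaled FPKM is the deposited value divided by a factor for each library, 0.455 to 0.771 in those 3 and 1.28 to 1.33 in the other 5. The 3 are replicate 2 of pRB+ control and replicate 1 of each AZD2811 group, so they are no group of the study and were not tested against the rest. RB1 was at 0.801 to 0.950 scaled FPKM in the pRB- libraries and at 6.36 to 7.67 in the pRB+ libraries, so the transgene followed the labels. The neuroendocrine markers NEUROD1 and CHGA were at 74.8 to 111 and 41.8 to 71.7 scaled FPKM, while the leukocyte marker PTPRC stayed at or below 0.0359.

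SNORD15B, a 146 nt member in an intron of RPS3, had the widest range of fragments among the members with a count. It had 3 and 5 fragments in pRB- control replicates 1 and 2, 122 and 3 in pRB- AZD2811, 5 and 72 in pRB+ control, and 88 and 6 in pRB+ AZD2811. The 3 high values are those of the 3 libraries with RMRP over 1000 scaled FPKM, and within 3 of the 4 groups the replicates stood on opposite sides. In deposited FPKM it was at 370 to 671 in those 3 libraries and at 12.5 to 28.3 in the other 5, and it made up 30.7% to 53.8% of all SNORD fragments in the 3 against 2.07% to 5.02% in the 5.

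SNORD97, of 142 nt and annotated within EIF4G2, followed the same order of libraries. Its fragments in replicates 1 and 2 were 4 and 3 in pRB- control, 16 and 2 in pRB- AZD2811, 3 and 31 in pRB+ control, and 33 and 2 in pRB+ AZD2811. SNORD10, of 148 nt and annotated within EIF4A1, had 2 and 9 fragments in pRB- control, 20 and 10 in pRB- AZD2811, 6 and 25 in pRB+ control, and 35 and 6 in pRB+ AZD2811. In both, every one of the 3 libraries rich in RMRP was above every one of the other 5, by deposited FPKM and by scaled FPKM as well as by fragments. The same held for SNORD89 (7 to 14 fragments against 0 to 4) and SNORD15A (4 to 8 against 0 to 3). SNORD17 has no fragment count and stood at 85.6 to 105 deposited FPKM in the 3 libraries and at 12.4 to 24.7 in the 5.

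The 3 host genes followed by library, RPS3, EIF4G2 and EIF4A1, did not show that order on the scaled FPKM scale. RPS3, host of SNORD15A and SNORD15B, was at 659 to 904 scaled FPKM in the 3 libraries and at 732 to 945 in the 5. EIF4G2 was at 101 to 118 against 101 to 120 scaled FPKM, so the ranges overlapped. EIF4A1 was lower in the 3 libraries, at 424 to 458 against 466 to 533 scaled FPKM, while SNORD10 was higher.

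By deposited FPKM, 6 of 10 members of 110 nt or more and 7 of 61 shorter ones were higher in all 3 RMRP-rich libraries than in any of the other 5. By scaled FPKM these were 8 of 10 and 9 of 61. Over all 12013 genes tested, 0.957% were higher in all 3 by deposited FPKM and 3.85% by scaled FPKM. The boundary at 110 nt was set with the values known, and the members were not tested between these libraries. Most of the shorter ones rest on 1 to 3 fragments, among them copies of SNORD116. SNORD33, in RPL13A, had 3 to 6 fragments in the 3 libraries and 0 to 3 in the 5.

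**Figure D2:**
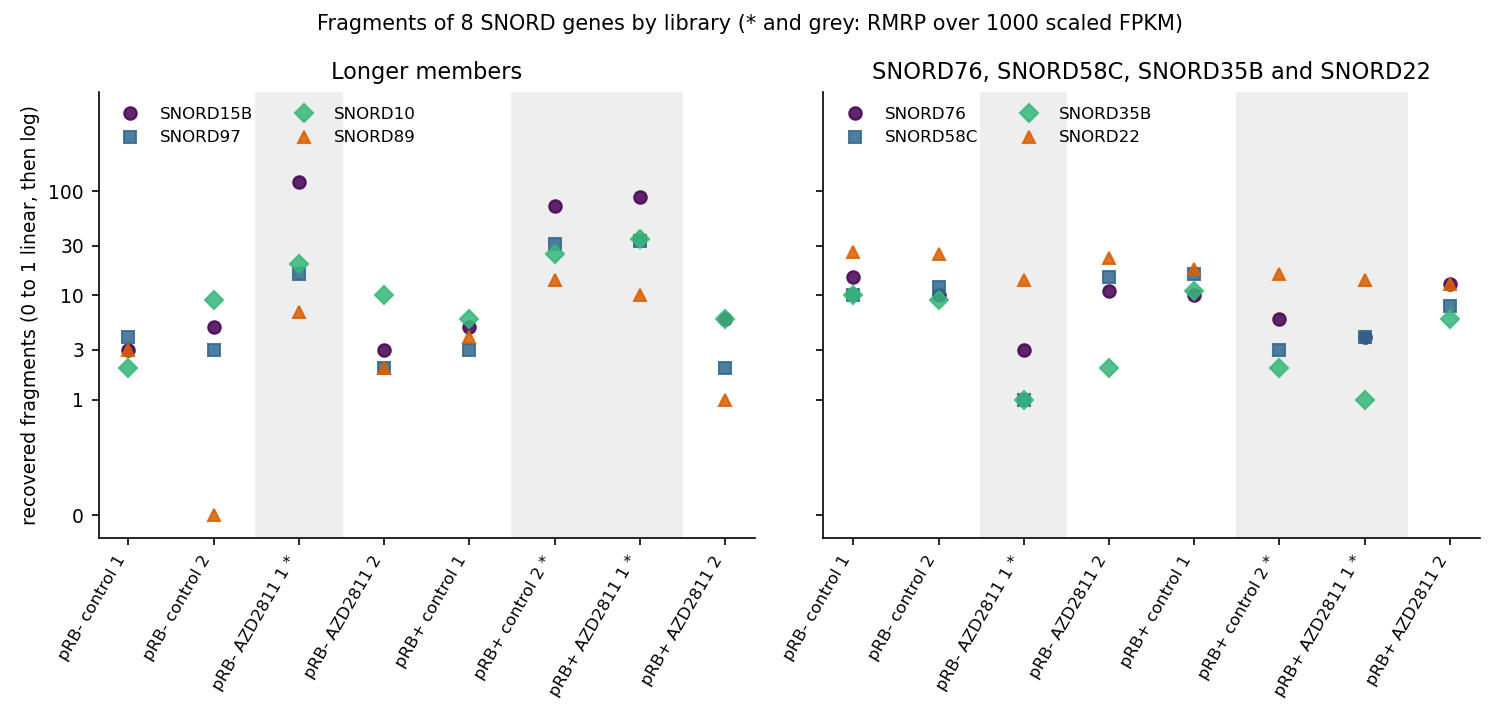
Recovered fragments (linear from 0 to 1, then log axis) of 8 SNORD genes in each of 8 libraries, with the libraries of RMRP over 1000 scaled FPKM in grey and starred. On the left, SNORD15B, SNORD97, SNORD10 and SNORD89 are above the other libraries in all 3 grey columns; on the right, SNORD76 and SNORD58C have their lowest fragments there, although by scaled FPKM their ranges overlap.

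A few members had the opposite order in fragments. SNORD76, in GAS5, had 15 and 10 fragments in pRB- control, 3 and 11 in pRB- AZD2811, 10 and 6 in pRB+ control, and 4 and 13 in pRB+ AZD2811. SNORD58C, in RPL17, had 10 and 12, 1 and 15, 16 and 3, and 4 and 8 in the same order. Both were lower in all 3 RMRP-rich libraries by fragments and by deposited FPKM, but by scaled FPKM the ranges overlapped, at 1318 to 1814 against 1397 to 2159 for SNORD76 and 186 to 496 against 451 to 841 for SNORD58C. By deposited FPKM 91% of all 12013 genes were lower in the 3 libraries, so that order is the common one on that scale. SNORD83A, in RPL3, was listed at 0 in the 3 libraries and had 2 to 4 fragments in the 5. SNORD22, in SNHG1, shows how far the order depends on the scale: its 14 to 16 fragments in the 3 libraries lay within the 13 to 26 of the other 5, while its scaled FPKM, at 214 to 337, lay above their 95.1 to 182.

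Over the family, fragments of members of 110 nt or more numbered 184, 198 and 168 in the 3 RMRP-rich libraries and 32 to 44 in the other 5. Raw fragments of shorter members, not corrected for depth, were fewer, at 43 to 74.4 in the 3 against 83.7 to 105 in the 5. That order belongs to the raw counts. By scaled FPKM, 9 of the 61 shorter members were higher in all 3 libraries than in any of the 5, and 1 was lower. The total per library was 227 to 272 in the 3 and 120 to 145 in the 5. The worth of 1 fragment was 1.21 and 1.32 times that of pRB- control replicate 1 in the AZD2811 libraries of the 3, against 0.915 to 1.05 in the other 4 of the 5. In pRB+ control replicate 2 that ratio depended on length, at 1.54 for 72 nt and 1.13 for 137 nt. The part of depth and of library preparation in these orders was not tested.

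**Figure D3:**
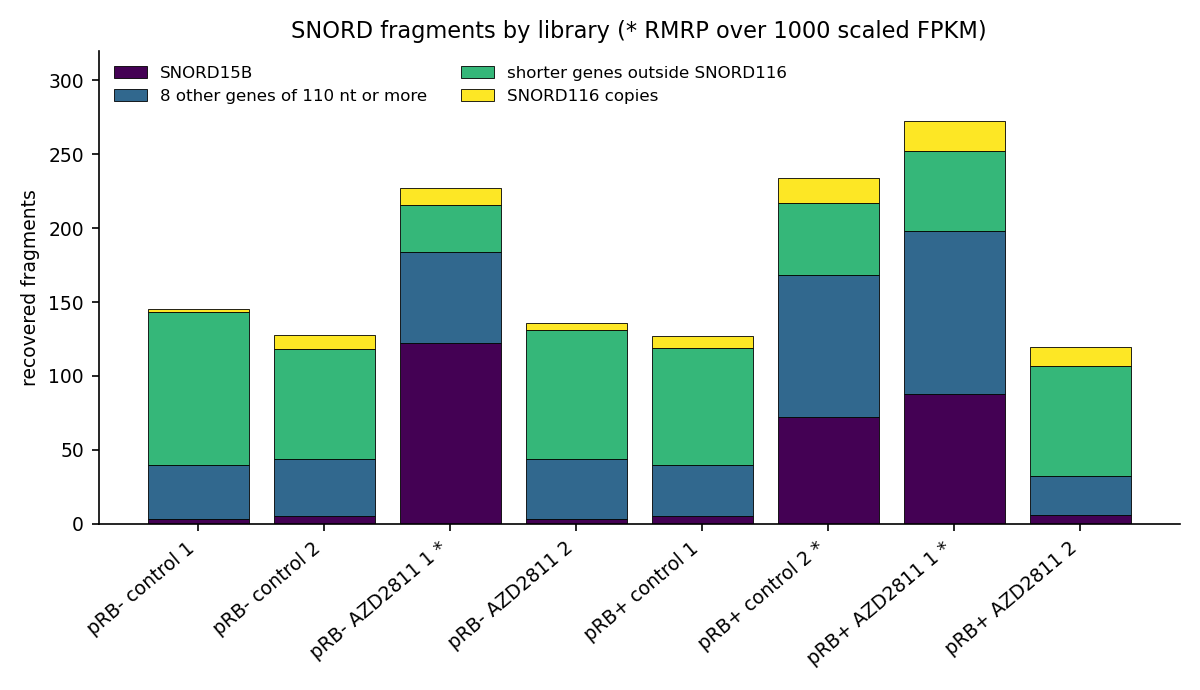
Recovered SNORD fragments in each of 8 libraries, stacked by SNORD15B, the 8 other counted genes of 110 nt or more, shorter genes outside SNORD116, and SNORD116 copies. The 3 starred libraries, with RMRP over 1000 scaled FPKM, hold 168 to 198 fragments of the longer genes against 32 to 44 in the others.

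The 5 members with the highest median scaled FPKM were SNORD76 (1480), SNORD100 (846), SNORD104 (824), SNORD58C (519) and SNORD45A (476), all of 76 to 90 nt. In pRB- control replicate 1, 1 fragment was worth 420 deposited FPKM at 76 nt and 70 at 90 nt. SNORD100, in RPS12, had 3 and 0 fragments in pRB- control, 0 and 5 in pRB- AZD2811, 3 and 2 in pRB+ control, and 1 and 0 in pRB+ AZD2811. SNORD104, in SNHG25, had 13 and 8, 1 and 4, 2 and 3, and 1 and 8 fragments in the same order. SNORD45A, in RABGGTB, had 4 and 5, 4 and 5, 2 and 1, and 5 and 5. For SNORD100 both pRB+ control libraries were above both pRB+ AZD2811 libraries, at 947 and 1460 against 744 and 0 scaled FPKM, and the other pairs of groups that differ in 1 factor overlapped. For SNORD104 both pRB- control libraries were above both pRB- AZD2811 and both pRB+ control libraries, by fragments and by scaled FPKM, and the other such pairs overlapped. For SNORD45A both pRB+ control libraries, at 192 and 203 scaled FPKM, were below the other 6, at 396 or more. None of the 3 was called by limma in any comparison, with an adjusted p of at least 0.581 for SNORD100, 0.307 for SNORD104 and 0.313 for SNORD45A.

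Members of the listed host genes were often at 0. The 39 hosts had mean levels from 6.91 to 2521 scaled FPKM, and 35 of their 90 members in the table had a value above 0. Over the whole family this was 72 of 254, and the counts were not matched for length. RPL7A, with a mean of 1814 scaled FPKM, had 1 of 4 members above 0, but these are 68 to 75 nt long, where few SNORD genes were above 0. GAS5, a noncoding host with a mean of 434 scaled FPKM, had 3 of 10 members above 0, all of 77 to 81 nt. SNHG1 (90.5) had 3 of 8 and ZFAS1 (208) 2 of 3, while SNHG5 (43.6) had 0 of 2. Among members of at least 72 nt, 18 of 29 (62.1%) lying inside an exon of a retained-intron transcript alone were above 0, as were 12 of 24 (50%) inside another annotated exon and 37 of 122 (30.3%) in an intron, by GENCODE 29. The intron class holds most copies of the clusters SNORD112 to SNORD115, all at 0, which lowers its share. Shares by position were not computed without these clusters, so their order is not read as an effect of position. Reads of a host exon or unspliced host RNA over such a position and reads of the mature box C/D RNA cannot be told apart in these values.

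The SNORD115 cluster was listed at 0 in every value, 344 in all over 43 copies. At the cluster's median length of 82 nt the limit that a count of 0 allows, 3 fragments, is worth 447 to 646 deposited FPKM in 7 libraries, so the data set only a high ceiling for each copy. The cluster SNORD112 to SNORD114 on chromosome 14, imprinted as well, was also at 0 in all of its 38 members, as were the 4 single genes SNORD64, SNORD107, SNORD108 and SNORD109.

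In the SNORD116 cluster a value above 0 was found in 19 of 27 copies, of 85 to 104 nt, and in 55 of 216 values. Summed over copies, fragments in replicates 1 and 2 were 1.67 and 9.67 in pRB- control, 11 and 4.5 in pRB- AZD2811, 8 and 17.2 in pRB+ control, and 20.4 and 12.5 in pRB+ AZD2811. The values overlapped between pRB- and pRB+ and between AZD2811 and control. The number of copies above 0 was 9, 13 and 12 in the 3 RMRP-rich libraries and 3 to 5 in the other 5.

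Among the copies, SNORD116-22 had the highest mean, 104 scaled FPKM. It had 0 and 4 fragments in pRB- control, 1 and 0 in pRB- AZD2811, 2 and 1 in pRB+ control, and 3 and 3 in pRB+ AZD2811. SNORD116-4 had 0 and 5, 0 and 1, 2 and 0, and 1 and 7 fragments in the same order. SNORD116-15 and SNORD116-20 had at most 2.2 and 2 fragments in any library. By GENCODE 29, SNORD116-4 and SNORD116-20 lie inside an annotated exon and SNORD116-22 partly over one. Reads of that exon and of the mature RNA cannot be told apart there. No copy was above 0 in more than 6 libraries.

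Among longer transcripts of the same locus, IPW rose with pRB. IPW, a noncoding transcript between the 2 clusters, was named after its values were seen. It stood at 2.24 and 2.98 scaled FPKM in pRB- control, 2.28 and 2.96 in pRB- AZD2811, 4.89 and 3.92 in pRB+ control, and 5.13 and 4.59 in pRB+ AZD2811. All 4 pRB+ libraries were above all 4 pRB- libraries. It rose by 0.64 ± 0.10 (SE) on the log2 scale with pRB over 4 against 4 libraries, with a limma adjusted p of 0.0252, where 5.35% of all genes rose. Without single libraries its adjusted p was 0.0252 to 0.0929, over 0.05 without either pRB- control library or the first replicate of any other group, and it was 1 with FPKM as deposited. In the leave-outs with an adjusted p over 0.05, 1 or 2 of all 12013 genes were called, and 1 among the RMRP-poor libraries alone. SNRPN, upstream in the same locus, was at 81.3 to 94.0 scaled FPKM in pRB- and at 88.6 to 94.7 in pRB+.

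**Figure D4:**
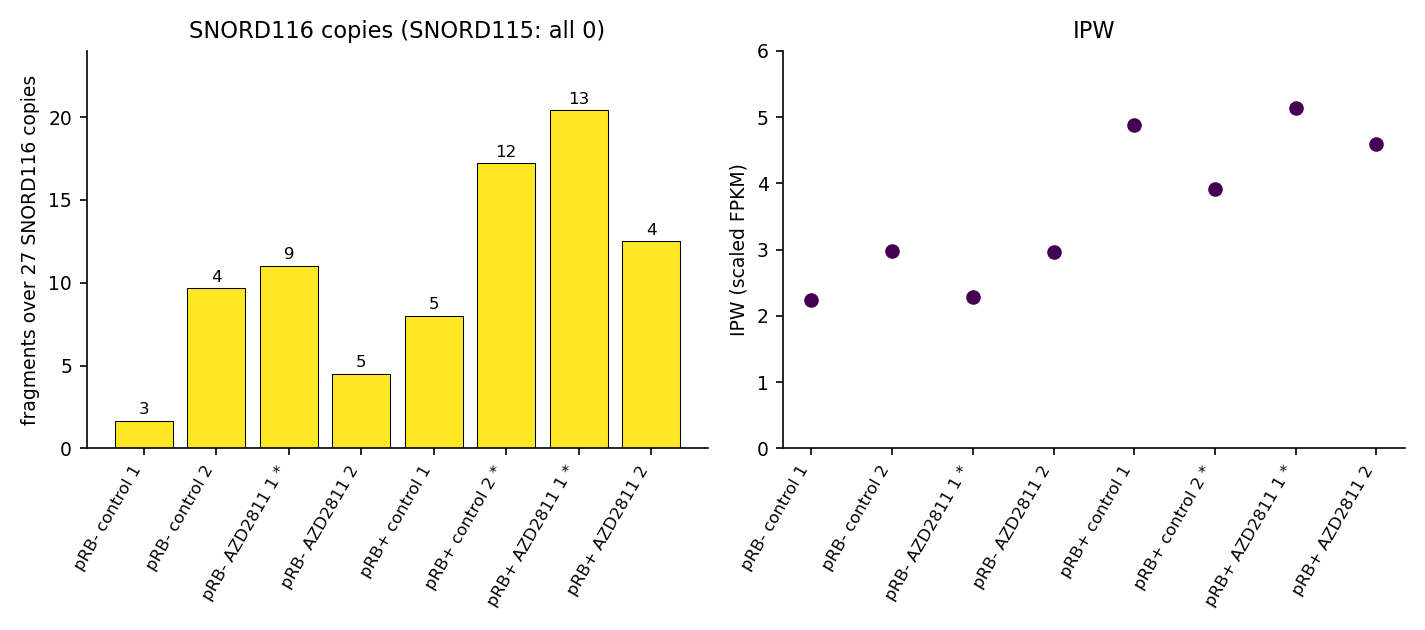
Left, fragments summed over 27 SNORD116 copies in each library, with the number of copies above 0 on each bar. Right, IPW in scaled FPKM, at 2.24 to 2.98 in the 4 pRB- libraries and 3.92 to 5.13 in the 4 pRB+ libraries. Stars mark RMRP over 1000 scaled FPKM.

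Differences between the study's groups were tested with limma on log2(scaled FPKM + 1) over the 12013 genes whose scaled FPKM averaged at least 1, of which 71 were SNORD. Fold changes on this scale understate the change of genes with values near the pseudocount. For short members a step from 0 to 1 fragment is instead large, as 1 fragment was worth 50.3 deposited FPKM at 94 nt in pRB- control replicate 1. These 71 passed that filter partly through single fragments. A gene was called at a Benjamini-Hochberg adjusted p under 0.05. In the 7 comparisons, SNORD genes made up 34% to 52% of the 50 largest fitted differences over all genes, though they were 0.591% of the genes tested. Other small RNA genes made up nearly all of the rest. Together SNORD, SNORA, Cajal body (SCARNA) and microRNA genes were 46 to 50 of the 50. For example SNORD47 had the largest fitted difference of all genes in the interaction of pRB and AZD2811, 13.3 ± 3.3 (SE) on the log2 scale, from 1 and 1, 0 and 1, 0 and 0, and 2 and 1 fragments. It was not called (limma adjusted p = 1), and the fitted size depends on the pseudocount.

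Between pRB+ and pRB- control libraries, 2 of 71 SNORD genes were called higher and 0 lower, where 0.0666% of all genes were called, 0.0333% in each direction. SNORD67, of 111 nt in CKAP5, had 1 fragment in each pRB+ control library, worth 17.6 and 20.2 deposited FPKM, and was listed at 0 in the other 6 libraries (limma adjusted p = 0.00853). Its call is lost without any 1 of those 6 libraries, with an adjusted p of 0.0523 to 0.0585. SNORD116-23 had 1 and 2 fragments in the pRB+ control libraries and was also listed at 0 in the other 6 (limma adjusted p = 0.0370). Without any 1 of those 6 its adjusted p was 0.124 to 0.29. With a pseudocount of 10 both calls were lost, with an adjusted p of 0.158 for each. Both members passed the filter on the mean only through the group in which they had fragments, so their calls describe these values and lend no support. No fold is given against a group at 0.

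In pRB+ cells, AZD2811 against control gave 1 SNORD gene called lower, the same SNORD67 (limma adjusted p = 0.0341), and 0 higher, where 0.00832% of all genes were called lower. This comparison uses the same 2 pRB+ control libraries. Its adjusted p without any 1 of the 6 libraries at 0 was 0.0681 to 0.186. SNORD116-23 was not called there (limma adjusted p = 0.129).

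In the other 5 comparisons limma called 0 of the 71 members. The unadjusted p was under 0.05 for 5 members for pRB under AZD2811, 5 for AZD2811 in pRB- cells, 4 for the interaction, 4 for pRB over 4 against 4 libraries and 9 for AZD2811 over 4 against 4. In the same order these were 7.04%, 7.04%, 5.63%, 5.63% and 12.7% of the members, beside 12.3%, 2.7%, 0.641%, 32.5% and 3.55% of all genes at an unadjusted p under 0.05. The percent of all genes called in these was 0.00832, 0.0333, 0.0166, 11.2 and 0. The smallest adjusted p among members for pRB over 4 against 4 libraries was that of SNORD35A, in RPL13A, at 0.0509 by limma. It had 0 and 1 fragments in pRB- control, 0 and 0 in pRB- AZD2811, 1 and 1 in pRB+ control, and 2 and 1 in pRB+ AZD2811. SNORD88A came nearest for AZD2811 in pRB- cells (limma adjusted p = 0.0617), from 1 fragment in each pRB- AZD2811 library. The median fitted difference of the 71 members was 0 in the 4 comparisons of 2 against 2 libraries, -0.43 for the interaction, 0.50 for pRB and 0.55 for AZD2811 over 4 against 4 libraries, beside -0.01 to 0.01 for all genes.

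Of 14 genes tested for proteins of the box C/D particle and its assembly, 2 rose and 0 fell with pRB over 4 against 4 libraries, where 11.2% of all genes were called, 5.35% higher and 5.81% lower. That background fell to 1 or 2 of all 12013 genes without any 1 of 5 libraries, namely either pRB- control library or the first replicate of any other group, and to 1 among the RMRP-poor libraries alone. NOP58, a core protein, was at 35.7 and 38.7 scaled FPKM in pRB- control, 39.7 and 46.9 in pRB- AZD2811, 66.4 and 54.8 in pRB+ control, and 64.9 and 56.7 in pRB+ AZD2811. The pRB+ and pRB- libraries did not overlap, and NOP58 rose by 0.58 ± 0.09 (SE) on the log2 scale (limma adjusted p = 0.0252). TGS1, which adds the trimethyl cap of some small nucleolar RNAs, was at 7.21 to 8.62 scaled FPKM in pRB- and 9.75 to 11.6 in pRB+ libraries, and rose by 0.41 ± 0.07 (SE; limma adjusted p = 0.0266).

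The other core genes did not pass. NOP56 differed by 0.26 ± 0.08 (SE) with a limma adjusted p of 0.0827, FBL by -0.12 ± 0.08 (0.334) and NHP2L1 by 0.03 ± 0.08 (0.833), all on the log2 scale over 4 against 4 libraries. NOP58 and TGS1 were not called in the 2 against 2 comparisons, where NOP58 differed by 0.68 ± 0.13 (limma adjusted p = 0.144) in control and 0.48 ± 0.13 (0.374) under AZD2811. With each library left out in turn the adjusted p of NOP58 was 0.0194 to 0.0929 and that of TGS1 0.0230 to 0.0953. It was 1 for each with FPKM as deposited. Both were over 0.05 without either pRB- control library or the first replicate of pRB- AZD2811, pRB+ control or pRB+ AZD2811. None of the 14 was called by limma for AZD2811 in any comparison, and the unadjusted p was under 0.05 for 1 of them in pRB- cells (7.14%) and for 0 in pRB+ cells and over 4 against 4, beside 2.7%, 0.683% and 3.55% of all genes.

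**Figure D5:**
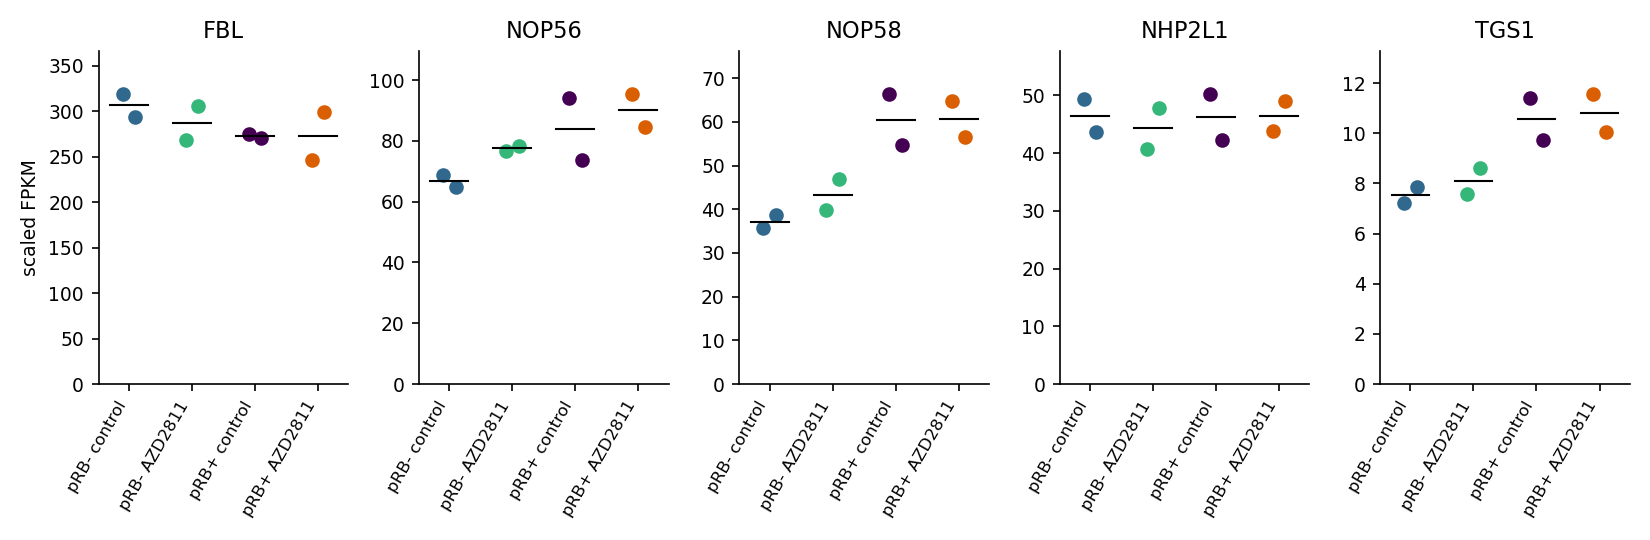
Scaled FPKM of 4 core protein genes of box C/D particles and TGS1 in each library (points) with group means (lines), axes starting at 0. NOP58 and TGS1 in the 4 pRB+ libraries lie above all 4 pRB- libraries, while FBL and NHP2L1 overlap.

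The genes outside small RNA families whose levels were most like the median SNORD level over the 8 libraries were EVI5L (Pearson r = 0.939), SNHG21 (0.926), PP7080 (0.911), RFXANK (0.878) and PIN4 (0.875). The points share libraries and depth, and the SNORD median was 0 in 3 of the 8 libraries, so the likeness is a description of sparse values.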

How the data were processed

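The authors deposited FPKM in 1 table of 8 libraries. For its making, STAR 2.5.1b, Cufflinks 2.2.1 and hg19 are named in the submitters' processing notes, and the annotation is not given in the sources used here. Of 25365 genes listed, 28 whose names had become dates were left out. The members and lists were chosen with earlier results of these data known. Each library was scaled to the geometric mean of all by its trimmed mean log ratio, leaving out at each end 30% of ratios and 5% of levels, and tested with limma 3.58.1 in R 4.3.3 (trend, pseudocount 1). A fit of 4 group means had 4 residual degrees of freedom and gave 5 comparisons. An additive fit with 5 gave the 2 of 4 against 4 libraries, which an earlier analysis added after seeing the data.

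Fragments were recovered, with Python 3.11.15, from the steps of the deposited FPKM within 15% of a curve over length, using RefSeq lengths (GRCh38.p14). On simulated whole fragments all counts were recovered in 296 of 296 cases. Their steps were drawn close to the same curve, without noise, so this result was nearly fixed in advance. The simulation left out pRB+ control replicate 2 and the fractional members. Positions and sequences come from GENCODE 29 (GRCh38), so coordinates are left out. A sequence that is withheld is not reported here. The table states no depth. On simulated data for 12013 genes, limma recovered 76.4% of genes changed by 1 on the log2 scale between control groups and 89.6% over 4 against 4 libraries. The changed genes were drawn from all genes tested. SNORD genes had a median SD of 2.89 on that scale, so these shares do not describe them.

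Named genes were the called members, up to 6 a comparison; the 5 highest by median; the 4 highest SNORD116 copies; SNORD67, SNORD116-23, RMRP, RPPH1, RB1, the core protein genes, and GAS5, SNHG1, ZFAS1 and SNHG5 with their members. SNORD15B, SNORD97, SNORD10, SNORD22, SNORD47, SNORD35A and the other members named by library, IPW and TGS1 were chosen after their values were seen. The alternatives were other scalings, filters and pseudocounts, a replicate block, a term for RMRP-rich libraries or their removal, a robust spread estimate and each library left out.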

Additional observations from a re-analysis of the deposited data

How the results depend on the processing

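Counts of called SNORD genes were small and moved with the setting. In the order pRB in control, pRB under AZD2811, AZD2811 in pRB-, AZD2811 in pRB+, interaction, pRB over 4 against 4 and AZD2811 over 4 against 4 they were 2, 0, 0, 1, 0, 0 and 0. With FPKM as deposited they were 30, 30, 34, 28, 31, 40 and 37; there limma took 1 common spread for all genes at a level (median moderated SD 0.702 for SNORD genes whose own median SD was 2.62), and the median of all genes moved by up to -0.64 (AZD2811 in pRB-). In the same order, 1.04%, 0.703%, 1.18%, 0.661%, 0.893%, 1.18% and 1.18% of all 12099 genes tested were called with FPKM as deposited. Of the SNORD calls there, 18, 18, 18, 15, 15, 25 and 22 were higher. Among libraries with RMRP under 1000 scaled FPKM alone they were 10, 11, 12, 13, 18, 1 and 2. Only pRB- control kept both of its libraries there, and each other group kept 1. In the fit of group means the residual spread thus came from that pair alone, so these counts are not read as differences between groups. A mean of at least 10, or a pseudocount of 10 or 50, gave 0 SNORD calls for pRB in control and for AZD2811 in pRB+. In these settings 0.0191%, 0.0166% and 0.0166% of all genes were called for pRB in control, and 0% for AZD2811 in pRB+. Without a filter the SNORD counts were 1 and 0, beside 0.0351% and 0% of all genes. A pseudocount of 0.1 gave 1 for pRB under AZD2811, 1 for AZD2811 in pRB-, 0 for AZD2811 in pRB+ and 1 for pRB over 4 against 4. In the same order 0.0166%, 0.0333%, 0% and 11.7% of all genes were called. A robust spread gave 1 for pRB in control and 1 for the interaction, beside 0.0666% and 0.0416% of all genes. A term for RMRP-rich libraries gave 1 for AZD2811 in pRB- and 1 for pRB over 4 against 4, beside 0.025% and 12.7% of all genes. Without other small RNA genes the counts were 1 for pRB under AZD2811, 2 for AZD2811 in pRB+ and 1 for pRB over 4 against 4. In the same order 0.0169%, 0.0169% and 13.8% of all 11808 genes were called. This setting and the pseudocount of 50 were chosen after seeing the data.

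Leaving out each library gave 0 to 4, 0 to 6, 0 to 6, 0 to 5, 0 to 6, 0 to 1 and 0 calls; the highest came without pRB+ control replicate 2 (4, 5 and 1 for pRB in control, AZD2811 in pRB+ and pRB over 4 against 4) and without pRB- AZD2811 replicate 1 (6 in each of the others that moved). A lone library is there assumed to vary like the other groups. The count of box C/D protein genes called for pRB over 4 against 4, 2, became 0 with FPKM as deposited, 0 in the libraries with RMRP under 1000, 1 with a mean of at least 10, 3 with a term for RMRP-rich libraries and 0 to 2 with each library left out (0 without either pRB- control library or the first replicate of any other group). Of all genes, 1.18%, 0.00832%, 12% and 12.7% were called for pRB over 4 against 4 in these settings in order. With each library left out the share was 0.00832% to 15.1%. The other causes were not tested.

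Correlations of deviations between libraries with the same replicate number ran from -0.606 to 0.735. The highest was between the first replicates of pRB- AZD2811 and pRB+ AZD2811, which are both RMRP-rich. The correlations thus mix replicate number with RMRP level and cannot decide whether the numbers pair the libraries. With the replicate block 1 SNORD gene was called for pRB in control and 0 for AZD2811 in pRB+, and no other count changed. Of all genes, 0.0499% and 0% were called in these 2 comparisons.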
